A study of Mus musculus with 2 samples.

Results

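The receptors described here are 7 genes of the colony-stimulating factor and Flt3 receptor family, Csf1r, Csf2ra, Csf2rb, Csf2rb2, Csf3r, Flt3 and Kit, found by symbol among the 32285 genes of the count tables. Each symbol matched 1 gene. Single-cell 3′ RNA libraries were made from viably frozen mouse spleen cells that had been sorted for CD45.2 and for CD11b, an integrin of myeloid and NK cells. There was 1 library labelled high B12 and 1 labelled low B12, and the series title places the work in Tet2-deficient haematopoiesis. The labels give neither the genotype, the age or number of the mice, nor the dose, route or time of B12. With 1 library a condition there is no replicate check. No difference below carries a p-value, intervals cover counting error only, and B12 cannot be told apart from any other difference between the libraries.

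As background, these receptors tell blood cells which lineage to supply and how long to live. Csf2ra and Csf2rb form the GM-CSF receptor. Csf2rb also serves IL-3 and IL-5, while its mouse copy Csf2rb2 serves IL-3 alone, and Csf3r receives G-CSF. These chains have no kinase of their own and signal through bound Jak kinases to Stat proteins. Csf1r, the receptor of CSF-1 and IL-34, Flt3, the receptor of FLT3 ligand, and Kit, the receptor of stem cell factor, carry a tyrosine kinase in the same protein. In the spleen Csf3r is best known from neutrophils, Csf1r from monocytes and macrophages, Flt3 from dendritic cells and early progenitors, and Kit from stem cells, progenitors and mast cells.

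In GENCODE M21 (build GRCm38), Csf3r lies at chr4:126024550-126044440 on the plus strand and Csf2ra at chr19:61223957-61228429 on the minus strand. Csf2rb, at chr15:78325752-78353847 on the plus strand, and Csf2rb2, at chr15:78282507-78305721 on the minus strand, lie 20030 bases apart. The pair are near-copies, and 8.19% of the 90-base windows of Csf2rb transcripts also occur in Csf2rb2, but 0 of 411 windows within the last 500 bases do, which is where 3′ counts are taken. Flt3 lies at chr5:147330741-147400489 on the minus strand and Kit at chr5:75574916-75656722 on the plus strand. The 250 bases before the start of 4 of these genes, from RefSeq on GRCm38.p6, are shown because the first 3 belong to receptors detected in neutrophils and monocytes, where the factors PU.1 and C/EBP act, and the fourth to the dendritic cell receptor. Capitals mark matches on either strand to GAGGAAG, a core that PU.1 and other ETS factors bind, or to GCAAT, the inner part of the C/EBP site. They lie at chr4:126024409-126024658 (plus), chr19:61228419-61228668 (minus), chr15:78305722-78305971 (minus) and chr5:147400490-147400739 (minus).
Csf3r: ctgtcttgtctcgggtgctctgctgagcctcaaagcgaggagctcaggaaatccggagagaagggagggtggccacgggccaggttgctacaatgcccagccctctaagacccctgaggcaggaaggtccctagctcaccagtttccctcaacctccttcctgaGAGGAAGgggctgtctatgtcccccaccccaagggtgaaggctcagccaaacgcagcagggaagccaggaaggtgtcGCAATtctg
Csf2ra: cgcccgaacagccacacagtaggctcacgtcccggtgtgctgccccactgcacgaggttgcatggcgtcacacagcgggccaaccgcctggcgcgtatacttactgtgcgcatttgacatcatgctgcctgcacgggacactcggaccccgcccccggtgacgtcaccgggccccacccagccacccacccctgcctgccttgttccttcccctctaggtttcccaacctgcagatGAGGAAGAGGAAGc
Csf2rb2: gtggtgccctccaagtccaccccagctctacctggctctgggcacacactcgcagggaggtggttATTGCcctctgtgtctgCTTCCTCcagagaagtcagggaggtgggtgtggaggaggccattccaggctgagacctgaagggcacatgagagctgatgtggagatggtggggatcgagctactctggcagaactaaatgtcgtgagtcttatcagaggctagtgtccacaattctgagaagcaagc
Flt3: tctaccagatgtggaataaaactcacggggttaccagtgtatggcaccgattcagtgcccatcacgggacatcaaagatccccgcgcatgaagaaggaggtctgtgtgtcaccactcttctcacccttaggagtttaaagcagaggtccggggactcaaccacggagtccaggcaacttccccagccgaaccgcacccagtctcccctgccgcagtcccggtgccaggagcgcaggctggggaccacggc
GAGGAAG began 86 bases before the RefSeq start of Csf3r, at 14 and 8 bases before that of Csf2ra in overlapping copies, and at 168 bases before that of Csf2rb2 on the opposite strand. GCAAT began 9 bases before the start of Csf3r and, on the opposite strand, 185 bases before that of Csf2rb2. Kit, not shown, held GAGGAAG at 223 and GCAAT at 148 bases before its start, and the Flt3 window held neither. Of 32841 mouse promoter windows of this length, 10.6% hold GAGGAAG and 23.1% hold GCAAT. The other motifs searched, TGTGGT of RUNX factors (in 14.0% of windows) and AGATAA of GATA factors (in 9.99%), were in none of the 5 windows read. RefSeq places the starts of Csf3r, Csf2ra and Kit inside the GENCODE genes. A match describes the letters and is not a binding site.

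UMIs (unique molecular identifiers, 1 per captured RNA molecule) numbered 46994991 in the high-B12 library, where 6748 cells had a median of 4327, and 48884220 in the low-B12 library, where 6510 cells had a median of 5695. Cells were put into classes by fixed RNA gates, first match first, and class names below stand for those gates. The high-B12 library held 35 progenitor cells (Elane, Mpo and Prtn3), 2651 neutrophils (S100a8 and S100a9), 673 B cells, 844 NK cells, 280 classical dendritic cells (cDC), 1159 monocytes and 1106 unassigned cells. The low-B12 library held 19 progenitor cells, 930 neutrophils, 1852 B cells, 946 NK cells, 270 cDC, 1676 monocytes and 817 unassigned cells. Independent markers were highest in their own class in both libraries for 6 of 6 B cell genes, 6 of 6 NK genes, 7 of 8 neutrophil genes and 4 of 5 progenitor genes. The monocyte and cDC gates were less clean. Of 7 monocyte markers 4 in high B12 and 3 in low B12 were highest in monocytes, with Ly6c2 highest in progenitor cells, Pou2f2 in B cells and Spn in NK cells in both libraries, and Ms4a4c in cDC in low B12. The cDC gate had 3 of 7 markers in high B12 and 2 of 7 in low B12 highest in it, and Xcr1, of type 1 cDC, highest in unassigned cells. In the progenitor gate Cd34 was at 0 in both libraries, so the name of this gate stands for its genes Elane, Mpo and Prtn3 and not for stem cells. The libraries shared 4 cell barcodes. Another gate was also passed by 73.9% of the cDC in high B12 and 77.4% in low B12, by 18.8% of the NK cells in high B12 and 16.4% in low B12, and by 97.1% of the progenitor cells in high B12 and 100% in low B12.

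Levels are given as CPM, the UMIs of a gene per 1000000 UMIs summed over the cells of a class in 1 library. They are compared for 1 gene across classes or libraries and not between genes. The receptors had different class patterns. Csf3r peaked in neutrophils and in unassigned cells, Csf1r in monocytes, and Flt3 and Kit in cDC and unassigned cells, while the GM-CSF receptor chains were spread over neutrophils, monocytes and cDC. NK cells or B cells had the lowest level of 5 of the 7 genes in both libraries.

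**Figure D1:**
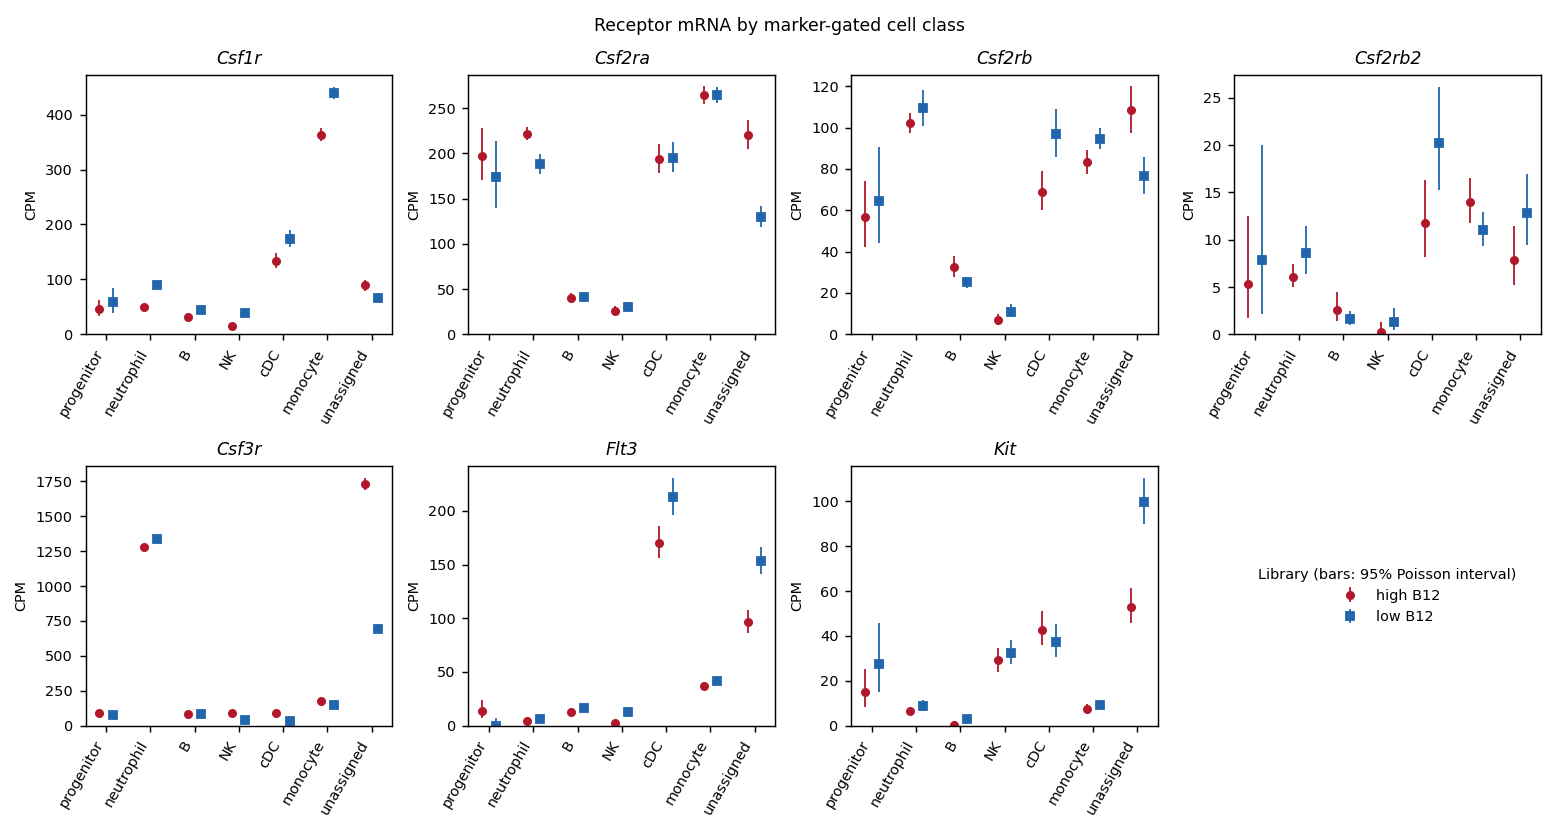
Level of each receptor gene in each cell class (horizontal axis) as CPM on a linear axis (vertical), with high B12 left of low B12 in each class and exact 95% Poisson intervals that cover counting error only. Csf3r stands at 1278 CPM in high-B12 and 1335 CPM in low-B12 neutrophils, Csf1r at 364 CPM in high-B12 and 439.6 CPM in low-B12 monocytes, and Flt3 at 170.2 CPM in high-B12 and 213 CPM in low-B12 cDC.

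Csf3r, the G-CSF receptor, was at nearly the same level in the neutrophils of both libraries. It had 20773 UMIs or 1278 CPM (95% Poisson interval 1261 to 1296) in high-B12 neutrophils and 7589 UMIs or 1335 CPM (1305 to 1365) in low-B12 neutrophils, which made it 1.04-fold lower in high B12 (1.02 to 1.07). After thinning each cell to 1000 UMIs, 71.2% of high-B12 and 71.9% of low-B12 neutrophils held a Csf3r UMI, and before thinning 91.2% of high-B12 and 90.6% of low-B12 neutrophils did. Thinning left out 22 high-B12 and 7 low-B12 neutrophils. In B cells, which should lack Csf3r, the thinned shares were 4.92% in high B12 and 3.41% in low B12, at median depths of 6443 UMIs in high-B12 and 6048 in low-B12 B cells against 3515 in high-B12 and 3064.5 in low-B12 neutrophils. Detection in neutrophils was thus far above this background in both libraries. The direction of the small difference was not fixed. Scaled by the median gene of the class, which was lower in high B12 by a log2 ratio of -0.21, Csf3r came to 0.15 higher on the log2 scale, and without cells passing a second gate it came to -0.34.

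Within neutrophils Csf3r ran opposite to granule RNA. Cells with less than 0.5% of their UMIs from Camp, Ngp and Ltf, genes of the secondary granules made in immature neutrophils, were called granule-low, and the others granule-high. Csf3r stood at 2861 CPM in granule-low and 202 CPM in granule-high cells of the high-B12 library, a 14.2-fold difference. In the low-B12 library it stood at 3309 CPM in granule-low and 161 CPM in granule-high cells, a 20.6-fold difference. The contrast was present in both libraries, and in UMIs per cell it ran against depth. Granule-low cells held on average 9.92 Csf3r UMIs each in high B12 and 10.4 in low B12, while granule-high cells held 2.59 in high B12 and 2.24 in low B12, although the granule-high cells were deeper, with medians of 11549.5 UMIs in high B12 and 11758 in low B12 against 3072 in high-B12 and 2706 in low-B12 granule-low cells. S100a8 and S100a9, which encode calprotectin and fill much of the neutrophil total, moved the folds to 10.8 in high B12 and 16.4 in low B12 when they were left out of it. Between libraries Csf3r was 1.16-fold lower in granule-low (1.13 to 1.19) and 1.25-fold higher in granule-high (1.14 to 1.38) cells of high B12.

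Csf3r was also lower where calprotectin took more of a cell's UMIs. In neutrophils with 5 to 10% of UMIs from calprotectin it stood at 2989 CPM in high B12 and 2878 CPM in low B12, and in those with 30% or more at 192 CPM in high B12 and 135 CPM in low B12. These ranges differed in granule stage. Granule-high cells were 3.26% of the lower range in high B12 and 1.96% in low B12, but 92.5% and 98.2% of the upper. Among granule-low cells alone the decline was smaller. It went from 3178 to 1376 CPM in high B12, where 48 such cells lay in the upper range. In low B12 it went from 3204 to 2252 CPM, on 3 such cells, with 3532 CPM at 10 to 20%. In the 20 to 30% range the libraries parted, with 1446 CPM in high B12 and 634 CPM in low B12. There 19.7% of the cells in high B12 and 50.9% in low B12 were granule-high, and among granule-low cells alone Csf3r stood at 2372 CPM in high B12 and 2848 CPM in low B12, so the direction turned. Below the 5% gate, unassigned cells with at least 3 UMIs of Cxcr2, Mmp9 and Retnlg, all neutrophil genes, numbered 532 in high B12 and 218 in low B12. They had the highest Csf3r of all cells examined, 3728 CPM in high B12 and 3769 CPM in low B12, and the interval of that ratio (0.941 to 1.04) included 1.

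**Figure D2:**
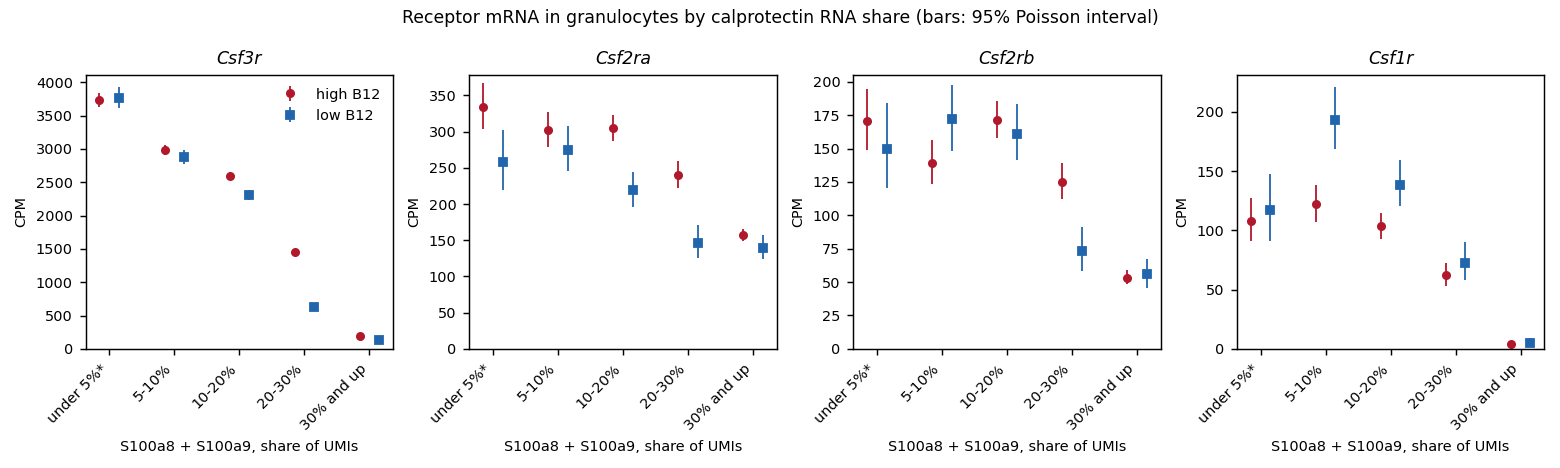
Levels of receptor genes in CPM (vertical axis) against the share of a cell's UMIs from calprotectin (horizontal axis), with high B12 and low B12 drawn apart and exact 95% Poisson intervals. The bin marked with an asterisk holds the unassigned cells with at least 3 UMIs of Cxcr2, Mmp9 and Retnlg, which lie below the 5% gate. Csf3r declines from 3728 CPM there to 192 CPM at 30% and above in high B12, and from 3769 CPM to 135 CPM in low B12. Granule-low and granule-high cells are not drawn apart, and their shares differ between the bins.

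Outside neutrophils, Csf3r stood at 179 CPM in high-B12 and 151 CPM in low-B12 monocytes, 1.19-fold higher in high B12 (1.12 to 1.27). The nonclassical monocytes, with more UMIs of Ace, Adgre4 and Cd300e than of Ly6c2 and Ccr2, had the higher level, 259.6 CPM against 151 CPM in classical monocytes of high B12 and 199 CPM against 119.7 CPM in those of low B12. The neutrophil markers moved with it, summing to 363 CPM against 262 CPM in the classical cells of high B12 and 279 CPM against 175 CPM in those of low B12, and their part in this difference was not tested. B cells had 85.5 CPM in high B12 and 80.1 CPM in low B12. NK cells and cDC were near the B cell level in high B12 and below it in low B12. NK cells had 91.6 CPM in high B12 and 40.8 CPM in low B12, a ratio of 2.24 (1.88 to 2.69), and cDC had 87.1 CPM in high B12 and 34.7 CPM in low B12, a ratio of 2.50 (1.98 to 3.20). Barcodes with 10 to 100 UMIs, which hold free RNA, had 569 CPM in high B12 and 243 CPM in low B12, a ratio of 2.34. The 8 neutrophil markers summed to 238 CPM in high-B12 and 83.8 CPM in low-B12 NK cells, and to 193 CPM in high-B12 and 76.8 CPM in low-B12 cDC, with none at 0. The part of free RNA and of mixed droplets in these ratios was not tested. In high B12, 53.0% of the NK UMIs and 63.1% of the cDC UMIs of Csf3r came from 10 cells each. In low B12 these shares were 61.4% for NK cells and 70.4% for cDC. Without cells that passed a second gate, the cDC ratio turned, with 27 UMIs in high B12 and 29 in low B12 (log2 ratio -0.41).

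Csf2ra, the GM-CSF-binding chain, was spread over all myeloid classes. It stood at 264 CPM in the monocytes of both libraries, at 194 CPM in high-B12 and 195 CPM in low-B12 cDC, and at 198 CPM in high-B12 and 174 CPM in low-B12 progenitor cells. In neutrophils it was 1.18-fold higher in high B12 (1.10 to 1.26), with 221 CPM in high B12 and 188 CPM in low B12. The intervals of the ratio in monocytes, 0.999 (0.95 to 1.05), and in cDC, 0.994 (0.883 to 1.12), included 1, so no difference was detectable there at this depth. B cells had 39.9 CPM in high B12 and 40.9 CPM in low B12, and NK cells had 108 UMIs in high B12 and 139 in low B12.

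Csf2rb, the signalling chain shared by GM-CSF, IL-3 and IL-5, stood at 102 CPM in high-B12 and 109 CPM in low-B12 neutrophils, a ratio of 0.932 whose interval (0.850 to 1.02) included 1. Monocytes had 83.2 CPM in high B12 and 94.6 CPM in low B12, and cDC had 69.0 CPM in high B12 and 97.0 CPM in low B12, which made Csf2rb 1.14-fold (1.04 to 1.24) and 1.41-fold (1.17 to 1.69) lower in high B12. In these 3 classes its ratio was below that of Csf2ra. For each Csf2rb UMI there were 2.17 Csf2ra UMIs in high-B12 and 1.72 in low-B12 neutrophils, 3.17 in high-B12 and 2.80 in low-B12 monocytes, and 2.82 in high-B12 and 2.01 in low-B12 cDC. The intervals of the neutrophils (2.05 to 2.30 in high B12, 1.56 to 1.90 in low B12) and those of the cDC (2.40 to 3.32 in high B12, 1.74 to 2.34 in low B12) did not overlap. The ratio was higher in high B12 in 6 of 7 classes, the B cells being the exception with 1.22 in high B12 and 1.63 in low B12. A UMI ratio of 2 genes depends on how well each 3′ end is captured, and only its change between libraries can be read.

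As a share of UMIs, the GM-CSF receptor chains differed by granule stage in the direction of Csf3r, but less. Csf2rb was 3.22-fold higher in granule-low than in granule-high neutrophils of high B12 and 3.55-fold in those of low B12, and Csf2ra was 1.85-fold higher in high B12 and 1.75-fold in low B12. With calprotectin left out of the totals, these folds were 2.46 in high B12 and 2.84 in low B12 for Csf2rb, and 1.41 in high B12 and 1.40 in low B12 for Csf2ra. In UMIs per cell the direction was opposite. Granule-low against granule-high cells held on average 1.06 against 2.11 Csf2ra UMIs in high B12 and 0.809 against 2.05 in low B12, and 0.600 against 0.688 Csf2rb UMIs in high B12 and 0.626 against 0.781 in low B12. Monocytes differed little by type, the nonclassical over classical ratio of Csf2ra being 1.11 in high B12 and 1.07 in low B12.

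Csf2rb2, the mouse chain for IL-3, was sparse everywhere. It stood at 14.0 CPM in high-B12 and 11.0 CPM in low-B12 monocytes, at 11.7 CPM in high-B12 and 20.2 CPM in low-B12 cDC, and at 6.09 CPM in high-B12 and 8.62 CPM in low-B12 neutrophils. In cDC, where it was 1.71-fold lower in high B12 (1.11 to 2.70), the value rests on 35 UMIs in high B12 and 57 in low B12. The other chain of the IL-3 receptor, Il3ra, was 1.82-fold lower in the neutrophils of high B12, with 63 UMIs in high B12 and 40 in low B12.

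Csf1r, the CSF-1 receptor, was lower in high B12 in 6 of the 7 classes, while the median measured gene was lower in every class. The direction of Csf1r held under every processing alternative in monocytes, cDC and neutrophils. In B cells, NK cells and progenitor cells it turned under some of them, with Csf1r log2 ratios of up to 0.75, 0.87 and 0.34. The gene lies on chromosome 18, and its main site was the monocyte, with 3594 UMIs or 364 CPM (352 to 376) in high B12 and 5988 UMIs or 439.6 CPM (428 to 451) in low B12, which made it 1.21-fold lower in high B12 (1.16 to 1.26). Of monocytes thinned to 1000 UMIs, 33.1% in high B12 and 37.7% in low B12 held a Csf1r UMI, against 1.19% of high-B12 and 1.57% of low-B12 B cells, and before thinning, which left out 5 high-B12 and 8 low-B12 monocytes, 85.2% of high-B12 and 88.5% of low-B12 monocytes did. Nonclassical monocytes carried more Csf1r than classical ones. They had 513 CPM against 313 CPM in the classical cells of high B12, a 1.64-fold difference, and 589 CPM against 349.7 CPM in those of low B12, a 1.68-fold difference. Nonclassical cells made up 32.7% of the monocytes in high B12 and 45.2% in low B12, and within each type Csf1r was still lower in high B12, by 1.15-fold (1.07 to 1.23) in nonclassical and by 1.12-fold (1.06 to 1.18) in classical cells.

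In neutrophils Csf1r was 1.79-fold lower in high B12 (1.60 to 2.01), with 816 UMIs or 50.2 CPM in high B12 and 512 UMIs or 90.1 CPM in low B12. It was the 1 gene of the 7 past 1.5-fold in neutrophils, where 17.3% of 9737 measured genes were, most of them lower in high B12. Between the libraries the monocyte markers moved with it, all 7 being detected and summing to 616 CPM in high-B12 and 777 CPM in low-B12 neutrophils. Of the neutrophils, 4.98% in high B12 and 10.4% in low B12 passed a second gate. Without those cells Csf1r had 549 UMIs in high B12 and 243 in low B12 and a log2 ratio of -0.67, against -0.84 with them. Free RNA held 105 CPM of Csf1r in high B12 and 172 CPM in low B12, 1.64-fold lower in high B12, and its part in the neutrophil ratio was not tested. In neutrophils with 30% or more calprotectin it was near 0, at 3.90 CPM in high B12 and 5.08 CPM in low B12, and in those with 5 to 10% it stood at 122 CPM in high B12 and 193 CPM in low B12. Granule-low cells had the higher CPM in both libraries, 96.5 CPM against 18.7 CPM in granule-high cells of high B12 and 148 CPM against 55.8 CPM in those of low B12. In UMIs per cell the libraries parted, with 0.335 in granule-low against 0.240 in granule-high cells of high B12 and 0.464 against 0.777 in those of low B12. By granule stage the 7 monocyte markers ran opposite to the CPM of Csf1r. They summed to 291 CPM in granule-low against 837 CPM in granule-high cells of high B12, and to 357 CPM against 1027 CPM in low B12.

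In cDC Csf1r stood at 134 CPM in high B12 and 173 CPM in low B12, 1.29-fold lower in high B12 (1.13 to 1.47). In NK cells, a type not known for this receptor, it had 60 UMIs in high B12 and 176 in low B12 and was 2.62-fold lower in high B12 (1.95 to 3.59). That NK difference turned its direction without some cells: without doublets called by Scrublet 20 UMIs were left in high B12 and 11 in low B12, with a log2 ratio of 0.87. Unassigned cells went the other way, with 89.1 CPM in high B12 and 66.7 CPM in low B12, though with every cell weighted the same the log2 ratio turned to -0.11. Csf1, the ligand, was 2.59-fold higher in the unassigned cells of high B12 (2.16 to 3.12), with 115 CPM in high B12 and 44.4 CPM in low B12. Cells with at least 3 UMIs of Cxcr2, Mmp9 and Retnlg were 48.1% of this class in high B12 and 26.7% in low B12. The part of this mix in the Csf1 ratio was not tested.

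Flt3 was highest in cDC, with 508 UMIs or 170.2 CPM (156 to 186) in high B12 and 601 UMIs or 213 CPM (196 to 231) in low B12, 1.25-fold lower in high B12 (1.11 to 1.41). A Flt3 UMI was found in 16.8% of high-B12 and 15.9% of low-B12 cDC at 1000 UMIs a cell, and in 71.4% of high-B12 and 81.5% of low-B12 cDC before thinning. The thinned shares lay within each other's counting intervals, and the thinned level had a log2 ratio of 0.27, opposite to -0.32 for all UMIs. Neutrophils held Flt3 in 0.152% of cells in high B12 and 0.217% in low B12 at that depth. Monocytes had 37.0 CPM in high B12 and 41.2 CPM in low B12. In progenitor cells 13 Flt3 UMIs came from 3 of 35 cells in high B12, and 0 were found in 19 cells in low B12, where 3 UMIs would be 5.86 CPM.

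Cells that passed no gate held the largest share of the Kit UMIs, 29.1% in high B12 and 44.0% in low B12, and 24.3% in high B12 and 28.4% in low B12 of those of Flt3. In unassigned cells Flt3 had 96.4 CPM in high B12 and 153 CPM in low B12 and was 1.59-fold lower in high B12 (1.39 to 1.83). Kit had 53.1 CPM in high B12 and 99.9 CPM in low B12 there and was 1.88-fold lower in high B12 (1.57 to 2.25). The cells with at least 3 UMIs of Cxcr2, Mmp9 and Retnlg, with less of both genes, made up 48.1% of the unassigned cells in high B12 and 26.7% in low B12. With every secondary gate removed, 494 cells in high B12 and 492 in low B12 were left. In them Flt3 stood at 159.7 CPM in high B12 and 196 CPM in low B12 (1.23-fold lower in high B12, 1.05 to 1.44), and Kit at 77.7 CPM in high B12 and 133 CPM in low B12 (1.71-fold lower, 1.39 to 2.13).

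Kit and Flt3 were often found in the same of these cells. Kit without Flt3 was found in 25 cells in high B12 and 30 in low B12, and Flt3 without Kit in 62 in high B12 and 75 in low B12. Both genes had a UMI in 39 of the 494 cells in high B12 and in 108 of the 492 in low B12. Those cells, singled out by the 2 receptors after their values were seen, held 7046 CPM of H2-Ab1, an MHC class II gene, in high B12 and 6187 CPM in low B12, and 97.9 CPM of Zbtb46, a cDC transcription factor, in high B12 and 135 CPM in low B12. Csf3r was nearly absent from them, at 2.97 CPM in high B12 and 8.86 CPM in low B12. Cells with 1 of the 2 receptors had similar levels of H2-Ab1 and Zbtb46. In high B12, H2-Ab1 stood at 7873 CPM with Kit alone and 6970 CPM with Flt3 alone, and Zbtb46 at 130 CPM and 80.5 CPM. In low B12, H2-Ab1 stood at 6130 CPM with Kit alone and 5984 CPM with Flt3 alone, and Zbtb46 at 135 CPM and 134 CPM. The cells with both were deep, with median UMIs of 9458 in high B12 and 8919.5 in low B12. Cells with neither receptor had medians of 1389.5 in high B12 and 1499 in low B12, and a shallow cell is less often seen with both. Type 1 cDC, gated by Xcr1 and Clec9a, were few, 17 in high B12 and 22 in low B12, and had 152 CPM of Flt3 and 138 CPM of Kit in high B12 and 196 CPM of Flt3 and 79.7 CPM of Kit in low B12. Cells gated as basophils or mast cells, of which mast cells are a known site of Kit, numbered 2 in each library and held 0 Kit UMIs.

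Kit also stood above free RNA, which had 8.19 CPM in high B12 and 9.90 CPM in low B12, in cDC and NK cells. In progenitor cells, on 14 UMIs in each library, its counting interval overlapped that of free RNA in both libraries. Of the Kit UMIs in cDC, 10 cells held 39.8% in high B12 and 52.8% in low B12. cDC had 42.9 CPM in high B12 and 37.5 CPM in low B12, and NK cells 29.1 CPM in high B12 and 32.6 CPM in low B12. The intervals of both ratios, 1.14 in cDC (0.877 to 1.49) and 0.893 in NK cells (0.697 to 1.14), included 1. B cells were lowest, with 2 UMIs in high B12 and 42 in low B12, which made Kit 6.27-fold lower in high B12 (2.01 to 66.0). This pair was under the limit of 50 UMIs for a measured gene, and 10 cells held 73.8% of the low-B12 UMIs. At 1000 UMIs a cell, which left out 13 high-B12 and 4 low-B12 NK cells, Kit was seen in 2.29% of high-B12 and 2.23% of low-B12 NK cells, against 0 of 671 high-B12 B cells, which allows a share of cells with a UMI of up to 0.447%, and 0.216% of low-B12 B cells. Progenitor cells had 14 Kit UMIs in each library, 14.9 CPM in high B12 and 27.3 CPM in low B12, and the interval of the ratio (0.242 to 1.24) included 1. Within neutrophils Kit ran opposite to Csf3r, with 94 of its 107 UMIs in high B12 and 43 of its 50 in low B12 in granule-high cells, which made its level there 4.92-fold that of granule-low cells in high B12 and 3.65-fold in low B12.

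**Figure D3:**
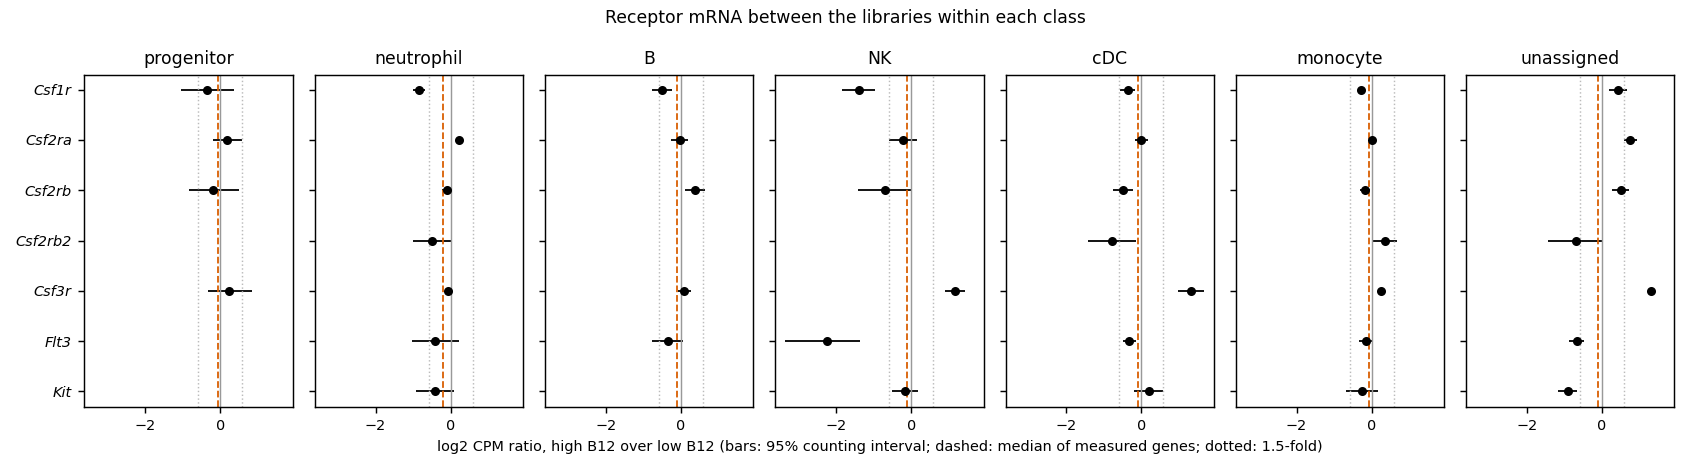
The CPM of high B12 divided by that of low B12, on a log2 axis, for each receptor gene in each cell class, with exact 95% conditional binomial intervals for counting error. Values above 0 are higher in high B12; Csf3r lies at 1.32 in unassigned cells and Csf1r at -0.84 in neutrophils.

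Of 49 pairs of a receptor gene and a class, 43 had at least 50 UMIs over both libraries, and 12 of these were past 1.5-fold, 4 higher and 8 lower in high B12. In unassigned cells 5 of 7 genes were past it against 26.4% of all measured genes, in NK cells 4 of 6 against 9.51%, and in cDC 2 of 7 against 8.96%. The neutrophils had 1 of 7, given above. None of the 5 measured in B cells, of the 7 in monocytes or of the 4 in progenitor cells was past it, where 11.4%, 7.85% and 16.4% of all measured genes were. The NK pairs, Csf1r, Csf2rb and Flt3 lower and Csf3r higher in high B12, include values as low as the 11 Flt3 UMIs in high B12 against 60 in low B12, and the first 3 turned direction without Scrublet doublets. In the unassigned cells the pairs were Csf3r and Csf2ra, higher in high B12 by 2.49-fold (2.38 to 2.61) and 1.69-fold (1.51 to 1.90), and Flt3, Kit and Csf2rb2, lower. Within the low-calprotectin granulocytes of that class, whose share differed as given above, the Csf3r ratio was 0.989. Among the unassigned cells left after every secondary gate, Csf3r stood at 559 CPM in high B12 and 110.2 CPM in low B12, a ratio of 5.06 (4.42 to 5.83). The 8 neutrophil markers moved with it there, summing to 372 CPM in high B12 and 64.6 CPM in low B12. The part of granulocyte RNA in this ratio was not tested.

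Over all cells together, Csf3r was 2.26-fold higher in high B12 (2.22 to 2.31), with 696 CPM in high B12 and 308 CPM in low B12, and it was the 1 gene of the 7 past 1.5-fold, where 27.4% of all measured genes were. The classes were then put together by arithmetic. With the levels of low B12 in each class and the class shares of high B12 the ratio would be 2.01, and with the levels of high B12 and the class shares of low B12 it would be 1.33. The larger part of the Csf3r ratio thus lay in the mix of classes, neutrophils being 39.3% of cells in high B12 and 14.3% in low B12. For Csf1r the order was the other way round. It had 126 CPM in high B12 and 181 CPM in low B12 over all cells, 1.43-fold lower in high B12, of which the levels alone gave 1.24-fold and the mix alone 1.10-fold. Kit, with 14.8 CPM in high B12 and 19.5 CPM in low B12, was 1.32-fold lower, and 1.42-fold lower by levels alone. For Flt3, with 32.1 CPM in high B12 and 46.4 CPM in low B12, these folds were 1.45 in all and 1.31 by levels alone. Csf2ra and Csf2rb were higher in high B12 by 1.29-fold and 1.19-fold, of which the mix alone gave 1.16-fold and 1.26-fold. In a sorted sample, fewer cells of a class and less RNA per cell cannot be told apart from such totals.

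**Figure D4:**
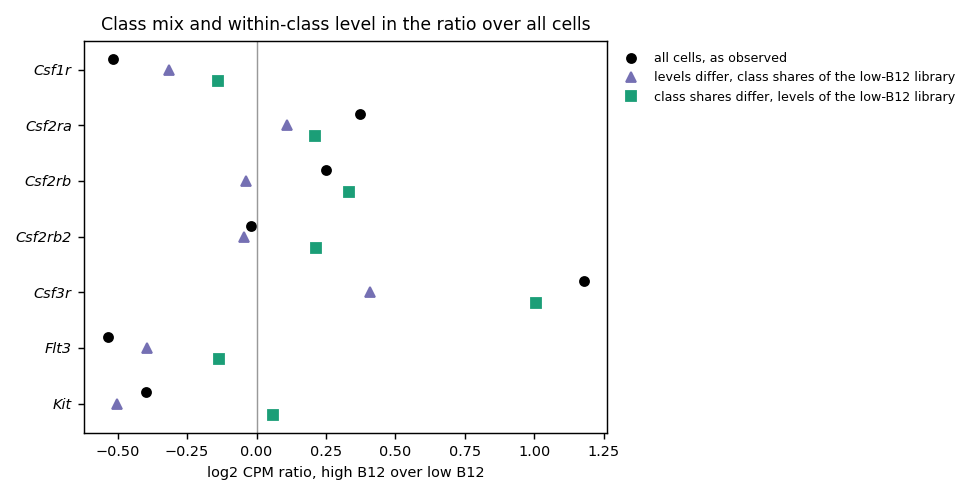
The CPM over all cells of high B12 divided by that of low B12, for each receptor gene as observed, with only the class shares exchanged and with only the class levels exchanged, on a log2 axis. For Csf3r the observed ratio of 2.26 stands beside 2.01 from class shares and 1.33 from levels.

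At 1000 UMIs a cell, Csf2rb and Csf3r were seen together in 11.1% of high-B12 neutrophils where the product of their shares was 9.0%, and in 14.1% of low-B12 neutrophils where it was 11.2%. Csf1r and Csf3r were seen together in 5.71% of high-B12 neutrophils (product 4.39%) and 8.78% of low-B12 neutrophils (product 7.72%). In monocytes Csf1r and Csf2ra met at the rate of their product, in 7.63% of cells in high B12 (product 7.83%) and 9.11% in low B12 (product 9.21%). Some other pairs, of which those listed next are examples, were seen together less often than their product, on few cells. Csf3r and Flt3 met in 1 unassigned cell of each library, 0.105% of cells in high B12 (product 2.29%) and 0.139% in low B12 (product 3.03%). Csf3r and Kit met in 0.209% of unassigned cells in high B12 (product 1.05%) and 0.139% in low B12 (product 2.11%), and Csf1r and Flt3 in 0.260% of monocytes in high B12 (product 1.00%) and 0.839% in low B12 (product 1.31%). Granule-low cells were 71.6% of the neutrophils in high B12 and 72.5% in low B12. Unassigned cells were mixed as well, low-calprotectin granulocytes being 48.1% of them in high B12 and 26.7% in low B12. For Csf3r, Flt3 and Kit these granulocytes had 3728, 19.7 and 12.1 CPM in high B12. In low B12 they had 3769, 57.7 and 42.8 CPM. After every secondary gate the cells left had 559, 159.7 and 77.7 CPM in high B12 and 110.2, 196 and 133 in low B12. The part of these mixtures in the joint shares was not tested.

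Class patterns were compared over 14 profiles, 7 classes in each of 2 libraries, by Pearson correlation of log2(CPM + 1) among 8429 genes, as a description without a test, since the profiles share libraries and depth. The gene most like Csf3r was Arg2 (0.986), followed by Cxcr2 (0.985), the chemokine receptor of mature neutrophils. For Csf1r it was Mpeg1 (0.966), a pore-forming protein of macrophages, for Csf2ra Alox5ap (0.989), which serves leukotriene synthesis, and for Csf2rb Spi1 (0.984), which encodes PU.1. Csf2rb2 was most like Gpr141 (0.955), Flt3 most like Sash1 (0.958) and Kit most like Marveld1 (0.921). Spi1 stood at 629.5 CPM in high-B12 and 585 CPM in low-B12 neutrophils and at 54.6 CPM in high-B12 and 71.0 CPM in low-B12 NK cells. Among the receptors themselves the 3 chains of the GM-CSF and IL-3 receptors were most alike, with 0.931 for Csf2ra and Csf2rb, 0.908 for Csf2rb and Csf2rb2 and 0.891 for Csf2ra and Csf2rb2, whereas Csf3r and Csf1r had 0.09. The rank correlation of Spearman named other leading genes for 6 of the 7 receptors, Kit keeping Marveld1.

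The pathway around the receptors was read from 74 genes, namely ligands, partner chains, kinases, STATs, adaptors, inhibitors, targets and transcription factors. In neutrophils 63 were measured, and 54 of them were lower and 9 higher in high B12, with a median log2 ratio of -0.21, the same as all measured genes. In monocytes 50 of 63 were lower, with a median of -0.19 against -0.08 for all genes, in NK cells 51 of 63 with -0.27 against -0.11, and in cDC 46 of 55 with -0.19 against -0.08. Unassigned cells had 37 of 62 higher, with a median of 0.13 against -0.11. Of the 14 kinases all were lower in high-B12 neutrophils, with a median of -0.18, close to that of all measured genes.

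Of the transcription factors 10 were measured in neutrophils, 5 of them were past 1.5-fold lower in high B12, where 15.7% of all measured genes were, and the median was -0.58. Klf4 stood at 33.7 CPM in high B12 and 87.1 CPM in low B12, Irf8 at 13.9 CPM in high B12 and 30.8 CPM in low B12, and Irf4 at 2.15 CPM in high B12 and 5.45 CPM in low B12. All 3 are best known from monocytes, dendritic cells and B cells, and the monocyte and B cell markers were lower in the same cells, the 6 B cell markers summing to 212 CPM in high B12 and 758 CPM in low B12. The part of mixed droplets in these ratios was not tested. Cblb, a ubiquitin ligase that limits receptor signalling, was lower in high B12 by 3.51-fold in neutrophils (12.4 CPM in high B12, 43.6 CPM in low B12). The part of mixed droplets in this ratio, in the same cells with the lower B cell markers, was not tested either. In monocytes Cblb was lower by 1.83-fold (126 CPM in high B12, 232 CPM in low B12). Ccnd3, a cyclin, was lower by 1.78-fold in monocytes and 1.60-fold in cDC. Socs3, which limits signalling by Csf3r, was 2.39-fold higher in the cDC of high B12 (70.4 CPM in high B12, 29.4 CPM in low B12). The neutrophil markers were also higher in these cDC, at 193 CPM in high B12 and 76.8 CPM in low B12. The part of neutrophil RNA in the cDC ratio was not tested. In unassigned cells Socs3 was 2.49-fold higher in high B12. The mix of the unassigned cells differed between the libraries as given above, and its part in that ratio was not tested. Socs2 was 3.71-fold lower in the monocytes of high B12, on 17 UMIs in high B12 and 89 in low B12. In B cells Il5ra, the chain that joins Csf2rb into the IL-5 receptor, was 4.13-fold higher in high B12 (3.36 to 5.11), with 47.4 CPM in high B12 and 11.4 CPM in low B12, while Csf2rb itself was 1.30-fold higher (1.07 to 1.57).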

How the data were processed

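UMI counts were measured in 1 high-B12 and 1 low-B12 library of sorted mouse spleen cells. The authors deposited raw counts per gene and barcode without normalization, empty droplets included, made with Cell Ranger 4 per the file headers, whereas version 2.1.1 stands in the submitters' processing notes. The build behind the counts was not given in the sources used here, and 32235 gene IDs (99.8%) were found in GENCODE M21.

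Cells had at least 500 UMIs, 200 genes and at most 10% mitochondrial UMIs. Gates, first match first, were Elane, Mpo and Prtn3 at 10 UMIs, S100a8 and S100a9 at 5% of UMIs, Cd79a and Cd79b at 3, Ncr1 and Klrb1c at 2, Cd209a and Clec10a at 3, and F13a1, Fn1, Ccr2, Ace and Adgre4 at 3 UMIs. Doublets were kept, and Scrublet (scanpy 1.11.5) called 329 (4.88%) cells in high B12 and 475 (7.30%) in low B12 for an alternative without them. Counts were summed per class and library and scaled to CPM, with 95% exact Poisson, binomial and conditional binomial intervals (scipy 1.17.1). Log ratios had 0.5 UMI added to each sum. A gene was measured in a class with 50 UMIs in both libraries together. Scripts were tested on simulated data.

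Genes named beyond the 7 receptors are, per class, up to 6 measured pathway genes with the largest log2 ratio, per receptor the 3 genes most like it in class pattern (the first is named, and 2 for Csf3r), and class markers. Which of these are printed was decided after their values were seen. The receptors, lists and gates were chosen with earlier results of these data known. The alternatives were another scaling, equal weight of cells, leaving out doublets or cells passing a second gate, stricter UMI, mitochondrial and gate limits, thinning to 1000 UMIs, and taking off free RNA at 5% of class UMIs. Leaving calprotectin out of totals and splitting calprotectin ranges by granule genes were chosen after seeing the data.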

Additional observations from a re-analysis of the deposited data

Results flagged for a closer look

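For 3 receptors the log2 ratio of high B12 over low B12 had counting intervals on opposite sides of 0 in different cell classes, and the difference between the classes was not tested, since there was 1 library a condition. Csf1r was at 0.42 in unassigned and -1.39 in NK cells, a difference of 1.81. Csf2rb was at 0.50 in unassigned and -0.70 in NK cells, a difference of 1.20. Csf3r was at 1.32 in cDC and -0.06 in neutrophils, a difference of 1.39. The NK values came from few UMIs, 60 of Csf1r in high B12 and 176 in low B12, and 28 of Csf2rb in high B12 and 51 in low B12, and turned direction when Scrublet doublets were left out, while the cDC value turned without cells passing a second gate. Csf1r in unassigned cells turned too, and was lowest at -0.11 with every cell weighted the same.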

How the results depend on the processing

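Of 44 log2 ratios followed, 21 kept their sign under each of 9 alternatives. Of 13 past 1.5-fold, Kit in progenitor cells included, 8 kept it, and 5 of these stayed past that fold under every alternative that gave a value. Csf1r in neutrophils ranged from -0.63 to -0.90. Csf3r in neutrophils (-0.06) came to 0.15 scaled by the median gene, 0.12 with gates raised 2-fold, -0.19 without doublets, -0.23 with cells weighted the same, -0.24 thinned to 1000 UMIs and -0.34 without cells passing a second gate. Csf2rb in neutrophils (-0.10) came to 0.11, 0.035 (gates raised), -0.24 (cells weighted the same), -0.31 (thinned) and -0.29 (second gate left out). Csf1r in monocytes (-0.27) came to -0.20 scaled by the median gene and -0.17 thinned, Flt3 in cDC (-0.32) to 0.27 thinned, and the 12 pairs past 1.5-fold to 6 thinned. Directions turned in NK cells for Csf1r (0.87 without doublets, 0.85 without a second gate), Csf2rb (0.77 and 0.81 likewise, 0.079 with cells weighted the same, 0.18 thinned) and Flt3 (0.77 without doublets), in cDC for Csf3r (-0.41 without a second gate) and in unassigned cells for Csf2rb2 (0.14 thinned). Thinning leaves few UMIs by construction, and the other causes were not tested. Without cells passing a second gate no progenitor cell was left in low B12 and no value could be had. No paired analysis was possible because each condition has 1 library. Sums under 50 UMIs limit Kit, Flt3 and Csf2rb2 in progenitor cells and Csf2rb2 and Kit in B cells.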
